A study of Mus musculus with 6 samples.

Results

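The genes described here encode MHC class I molecules and the machinery that loads peptides onto them: the classical heavy chains H2-K1 and H2-D1, the non-classical heavy chains H2-T22, H2-T23 and H2-M3, the light chain B2m, the peptide transporter Tap1 and Tap2, the loading factor Tapbp and the trimming peptidase Erap1. They are 10 genes picked by symbol from the 12656 genes of the expression table, and all 10 were present and passed the filter that left 11931 genes for testing. RNA was sequenced from 4T1, a mammary carcinoma line of BALB/c mouse origin labelled as triple-negative breast cancer. 3 libraries came from 4T1 cells treated with LP-184 for 48 h, and 3 came from 4T1 cells given the solvent DMSO. LP-184 is an acylfulvene prodrug that alkylates DNA, and the labels state no dose for it and no time for DMSO. No genotype or further agent separates the groups, all 6 libraries come from a single cell line, and nothing in the labels tells whether the replicates were grown separately. The p-values below therefore reflect only how far these libraries differ from one another, which may be technical variation.

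Class I molecules display peptides from inside the cell to CD8 T cells. Proteasomes cut proteins into peptides, the TAP transporter moves the peptides into the endoplasmic reticulum, ERAP1 trims them, and tapasin (the product of Tapbp) holds an empty heavy chain and B2m next to TAP until a fitting peptide binds. Interferons, NF-kB and the transactivator NLRC5 are known to raise transcription of many of these genes through sites close to their starts. Tumour cells that lose parts of this machinery are known to escape T cells.

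After LP-184, transcripts of the classical heavy chains, of H2-T23, of the light chain and of tapasin were more abundant, while those of H2-M3, the transporter and the trimming peptidase were less abundant. H2-K1, H2-D1, B2m and Tapbp were 1.72-fold to 2.07-fold higher, H2-T23 was 2.35-fold higher and H2-T22 1.15-fold higher, the last no more than genes of its span. Tap1, Tap2 and H2-M3 were 2.00-fold to 2.22-fold lower and Erap1 2.62-fold lower. By limma on the deposited log2 values, with Benjamini-Hochberg adjustment over all genes and a threshold of 0.05, 6 of the 10 genes were higher and 4 lower with LP-184. Of all genes tested, 38.3% were higher and 40.0% lower by the same rule, 78.3% in all, so a call by itself is common in these libraries. The count of lower genes is close to that background and the count of higher genes is above it. Of genes of 3.1 to 5.6 kb, the span range of the heavy chain genes and B2m, 52.2% were higher. The counts alone show nothing particular to these 10 genes. Changes of 2-fold or more were rarer: 2 of the 10 genes rose by that much, H2-T23 and Tapbp, against 8.08% of all genes, and 3 fell by that much, H2-M3, Tap2 and Erap1, against 12.6%. The LP-184 and DMSO libraries did not overlap for any of the 10 genes, which also held for 79.1% of all genes tested, 38.9% with LP-184 higher and 40.2% with LP-184 lower.

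The promoters are shown first, because the genes that rose and those that fell share parts of the known class I promoter. RefSeq sequence of GRCm38.p6, the build family of the mm10 files, covers 9 of the 10 genes, and the 250 bases before the annotated start of 6 of them follow, 5′ to 3′ on the strand of the gene. The first 4 rose with LP-184 and the last 2 fell. Capitals mark matches, on either strand, to 5 motifs: the palindromic kappa B site of class I enhancer A that NF-kB binds, the interferon-stimulated response element (GAAA, any 2 bases, GAAA), TTCNNNGAA, the interferon gamma activated site, TGACG, the core of the cyclic AMP response element, and CCAAT, the Y box of NF-Y.
H2-K1 (chr17:34000348-34000597, reverse strand): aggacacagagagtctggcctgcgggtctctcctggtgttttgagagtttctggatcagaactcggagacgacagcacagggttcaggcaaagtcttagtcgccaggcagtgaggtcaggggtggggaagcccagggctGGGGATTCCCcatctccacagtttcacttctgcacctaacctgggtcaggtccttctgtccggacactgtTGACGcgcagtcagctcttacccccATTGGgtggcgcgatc
H2-D1 (chr17:35262844-35263093, forward strand): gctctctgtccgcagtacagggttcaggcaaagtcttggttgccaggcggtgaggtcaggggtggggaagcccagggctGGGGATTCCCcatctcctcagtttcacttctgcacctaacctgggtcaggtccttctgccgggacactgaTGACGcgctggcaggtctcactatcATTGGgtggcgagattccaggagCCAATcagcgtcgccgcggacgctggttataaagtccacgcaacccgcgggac
B2m (chr2:122147437-122147686, forward strand): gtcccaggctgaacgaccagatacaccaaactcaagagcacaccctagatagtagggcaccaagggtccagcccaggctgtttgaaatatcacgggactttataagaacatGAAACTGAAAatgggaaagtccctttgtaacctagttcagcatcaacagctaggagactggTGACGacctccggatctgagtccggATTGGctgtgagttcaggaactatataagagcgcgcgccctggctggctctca
H2-T23 (chr17:36032702-36032951, reverse strand): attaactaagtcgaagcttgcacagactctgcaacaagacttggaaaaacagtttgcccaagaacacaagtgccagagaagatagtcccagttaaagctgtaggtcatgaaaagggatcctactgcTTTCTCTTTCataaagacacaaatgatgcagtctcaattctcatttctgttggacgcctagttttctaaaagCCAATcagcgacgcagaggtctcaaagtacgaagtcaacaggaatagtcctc
H2-M3 (chr17:37269984-37270233, forward strand): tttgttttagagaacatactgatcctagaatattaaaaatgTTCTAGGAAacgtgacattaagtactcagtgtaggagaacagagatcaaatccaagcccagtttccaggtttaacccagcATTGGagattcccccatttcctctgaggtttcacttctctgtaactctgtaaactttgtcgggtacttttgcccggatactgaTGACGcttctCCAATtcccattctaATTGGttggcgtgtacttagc
Tap1 (chr17:34187306-34187555, forward strand): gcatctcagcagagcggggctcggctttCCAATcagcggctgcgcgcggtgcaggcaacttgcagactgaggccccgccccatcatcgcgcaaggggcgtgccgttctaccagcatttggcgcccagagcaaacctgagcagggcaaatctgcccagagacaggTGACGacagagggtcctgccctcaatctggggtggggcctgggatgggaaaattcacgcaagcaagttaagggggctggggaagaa

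An exact match to the palindromic kappa B site was present in H2-K1. It began at position -111 from the RefSeq start of the printed window, and at -125 from a second RefSeq start. H2-D1 held the site at position -171, and none of the other 7 genes with a window did. RefSeq starts can differ from the GENCODE starts that set the spans. The printed window of H2-D1, for example, lies inside its GENCODE span. Over the 32851 RefSeq windows of the same length, 0.085% held the exact match. Kappa B sites that differ from this palindrome were not counted, and similar letters stand in the printed windows of B2m and H2-M3. Whether the other 7 genes lack kappa B sites was therefore not tested. The interferon-stimulated response element was matched in B2m at -139, in H2-T23 at -124 and in H2-T22 at -191, against 3.0% of all windows. All 5 of these genes were called higher, H2-T22 only without correction for gene span, as given below. So were 38.3% of all genes tested and 52.2% of those of 3.1 to 5.6 kb, the span range of these 5. Close variants of the response element were not counted, such as tttcacttct in the printed windows of H2-K1, H2-D1 and H2-M3, the last of which fell. Whether the motifs bear on these changes was not tested. Tapbp rose with no match to the kappa B palindrome or the response element in its window. H2-M3, which fell, held the only gamma activated site, at -209, against 7.0% of all windows. The Y box was found in 8 of the 9 genes, in those that rose and in those that fell, with Erap1 the exception, and 33.8% of all windows hold it. TGACG was found in 6 of the 9, H2-M3 and Tap1 among them, against 17.8% of all windows. No match overlapped another in these windows. A match describes the letters of the C57BL/6J reference and not a bound site.

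H2-K1 and H2-D1 encode the classical class I heavy chains that present peptides to CD8 T cells. H2-K1 had 243, 244 and 245 CPM (reads scaled for the size of each library) in LP-184 replicates 1 to 3, against 120.5, 122 and 127 CPM in DMSO replicates 1 to 3. The LP-184 libraries lay within 2 CPM of each other and close to 2 times the DMSO libraries. The log2 fold change of H2-K1 was 0.99 ± 0.03 (SE, n = 3 each, limma adjusted p = 2.6e-25). H2-D1 had 453, 467 and 446 CPM with LP-184, against 268, 263 and 264 CPM with DMSO, a log2 fold change of 0.78 ± 0.02 (adjusted p = 4.6e-25). H2-K1 and H2-D1 lie on chromosome 17, at 33996017 to 34000347 and at 35262730 to 35267499 in the GRCm38 annotation of GENCODE. Their summed level was 699 ± 10.3 CPM with LP-184 and 388 ± 2.93 CPM with DMSO (SD, n = 3 each), and the H2-K1 share of that sum was 34.4% to 35.5% with LP-184 and 31.0% to 32.5% with DMSO.

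B2m encodes beta-2-microglobulin, the invariant light chain without which heavy chains do not reach the surface. It had 535, 542 and 544 CPM with LP-184, against 276, 272 and 277 CPM with DMSO. The groups were far apart relative to their spread, with 10383 to 12213 reads per LP-184 library and 5146 to 5840 per DMSO library. The log2 fold change of B2m was 0.97 ± 0.02 (SE, n = 3 each, limma adjusted p = 1.3e-28). B2m lies outside the MHC, on chromosome 2 at 122147686 to 122153083. Per kb of annotated exon, B2m had 2.42 ± 0.0419 times the summed level of H2-K1 and H2-D1 in LP-184 libraries and 2.21 ± 0.00376 times in DMSO libraries (SD, n = 3 each). The light chain thus rose slightly more than the summed heavy chains, with ratios that did not overlap between the groups. The size of this ratio depends on the length used. H2-K1 has 2938 bases by the union of annotated exons and 1619 in its longest coding transcript.

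**Figure D1:**
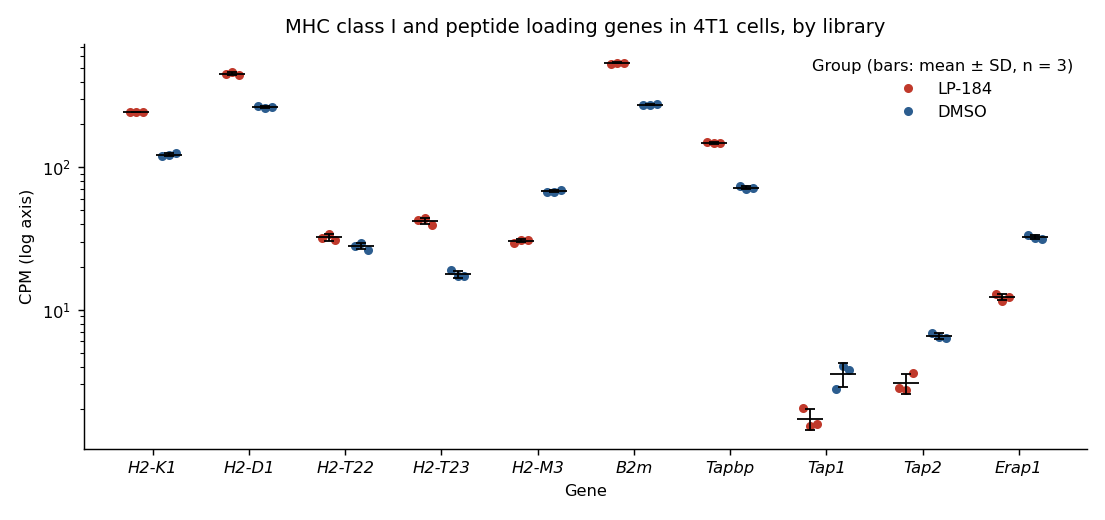
Level of each gene in each library, in CPM on a log axis, with LP-184 left of DMSO for each gene, dots for the 3 libraries of a group, and black bars for the mean ± SD. B2m, H2-D1, H2-K1 and Tapbp sit highest and are higher with LP-184, while H2-M3, Tap1, Tap2 and Erap1 are lower with LP-184, and no gene has overlapping groups.

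The non-classical heavy chains did not move together. H2-T23 encodes Qa-1, which shows signal peptides of other class I molecules to the CD94 and NKG2A receptor of natural killer and T cells. It had 42.7, 44.0 and 39.7 CPM with LP-184, against 18.9, 17.4 and 17.2 CPM with DMSO. Each LP-184 library had over 2 times the level of each DMSO library, and the log2 fold change of H2-T23 was 1.23 ± 0.07 (SE, n = 3 each, limma adjusted p = 1.6e-17), larger than that of 94.9% of all genes tested. H2-T22 encodes a heavy chain known as a ligand of a subset of gamma-delta T cells. It had 31.8, 34.2 and 31.1 CPM with LP-184, against 28.1, 29.5 and 26.5 CPM with DMSO. The lowest LP-184 and the highest DMSO library of H2-T22 lay about as far apart as the SD within a group (1.65 CPM with LP-184 and 1.46 CPM with DMSO), and the log2 fold change was 0.21 ± 0.07 (adjusted p = 0.006).

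H2-M3 encodes the heavy chain that presents N-formylated peptides of bacterial and mitochondrial origin. It was the heavy chain gene of these 5 that fell: it had 29.7, 31.1 and 30.8 CPM with LP-184, against 67.7, 67.0 and 69.2 CPM with DMSO. Every LP-184 library lay far below every DMSO library, and the log2 fold change of H2-M3 was -1.15 ± 0.05 (SE, n = 3 each, limma adjusted p = 2.4e-20). H2-M3 lies at the far end of the MHC on chromosome 17, at 37270220 to 37274484. Per kb of the union of annotated exons, H2-M3 had 21.2 ± 0.523 CPM with LP-184 and 47.3 ± 0.803 CPM with DMSO. H2-K1 had 83.2 ± 0.296 CPM per kb with LP-184 and 41.9 ± 1.18 with DMSO (SD, n = 3 each). The higher DMSO value of H2-M3 depends on the length used. The union is 2938 bases for H2-K1, whose longest coding transcript has 1619 bases, and 1438 bases for H2-M3 by both measures. In CPM, H2-K1 lay above H2-M3 in both groups.

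The loading complex split between its parts. Tapbp encodes tapasin, the bridge between TAP and the heavy chain. Tapbp had 151, 148 and 148 CPM with LP-184, against 73.8, 70.4 and 71.7 CPM with DMSO, a log2 fold change of 1.05 ± 0.04 (SE, n = 3 each, limma adjusted p = 9.3e-24). Tap1 and Tap2 encode the subunits of the transporter that carries peptides across the membrane of the endoplasmic reticulum. Tap1 had 2.06, 1.53 and 1.57 CPM with LP-184, against 2.79, 4.05 and 3.80 CPM with DMSO. These are few reads, 47, 32 and 30 in the LP-184 libraries and 52, 87 and 71 in the DMSO libraries, and the CPM value nearest to DMSO replicate 1 was that of LP-184 replicate 1. The log2 fold change of Tap1 was -1.0 ± 0.23 (adjusted p = 2.1e-04). Tap2 had 2.85, 2.73 and 3.62 CPM with LP-184, against 6.92, 6.43 and 6.31 CPM with DMSO, a log2 fold change of -1.08 ± 0.17 (adjusted p = 9.5e-07). Both TAP genes were low in all libraries: 12.4% of all genes tested had a lower mean over the 6 libraries than Tap1, and 18.7% a lower one than Tap2.

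Within each library, the balance of transcripts therefore differed between the groups. Per kb of exon, Tapbp had 111, 146 and 142 times the level of Tap1 in LP-184 libraries, against 39.9, 26.2 and 28.5 times in DMSO libraries. Against Tap2, Tapbp had 55.4, 56.5 and 42.6 times the level with LP-184 and 11.1, 11.4 and 11.8 times with DMSO. H2-K1 and H2-D1 together had 233 ± 28.9 times the summed level of Tap1 and Tap2 with LP-184 and 60.8 ± 1.75 times with DMSO (SD, n = 3 each). The ratio of Tap2 to Tap1 was 2.64 ± 0.666 with LP-184 and 2.77 ± 0.718 with DMSO, and its groups overlapped. The size of these ratios depends on the length used. Tap1 has 5476 bases by the union of annotated exons and 2953 in its longest coding transcript. These ratios describe transcripts, and protein was not measured in the data used here.

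**Figure D2:**
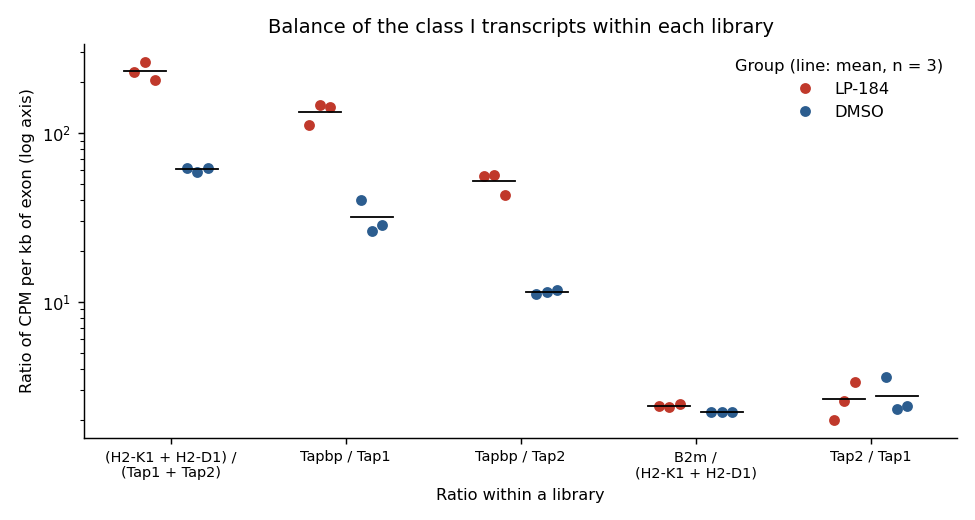
Ratios of levels within each library, each level in CPM per kb of annotated exon, on a log axis, with LP-184 left of DMSO, dots for libraries and lines for the mean of 3. Heavy chains and Tapbp stand higher relative to the TAP genes in every LP-184 library than in any DMSO library, while the Tap2 to Tap1 ratios overlap.

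Erap1, the aminopeptidase of the endoplasmic reticulum that trims peptides to the length that class I molecules hold, had the largest fold decrease of the 10 before any correction for gene span, and the smallest of the 4 decreases after it. It had 12.9, 11.6 and 12.3 CPM with LP-184, against 33.4, 31.9 and 31.6 CPM with DMSO. Each LP-184 library was well under each DMSO library, and the log2 fold change of Erap1 was -1.39 ± 0.08 (SE, n = 3 each, limma adjusted p = 3.3e-17), lower than that of all but 7.87% of genes tested. Erap1 lies on chromosome 13 at 74639568 to 74693201 and shares exonic sequence, on the opposite strand, with Cast, the gene of the calpain inhibitor calpastatin. Cast had a log2 fold change of -0.53, and of 0.48 once the trend with gene span described below was removed.

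**Figure D3:**
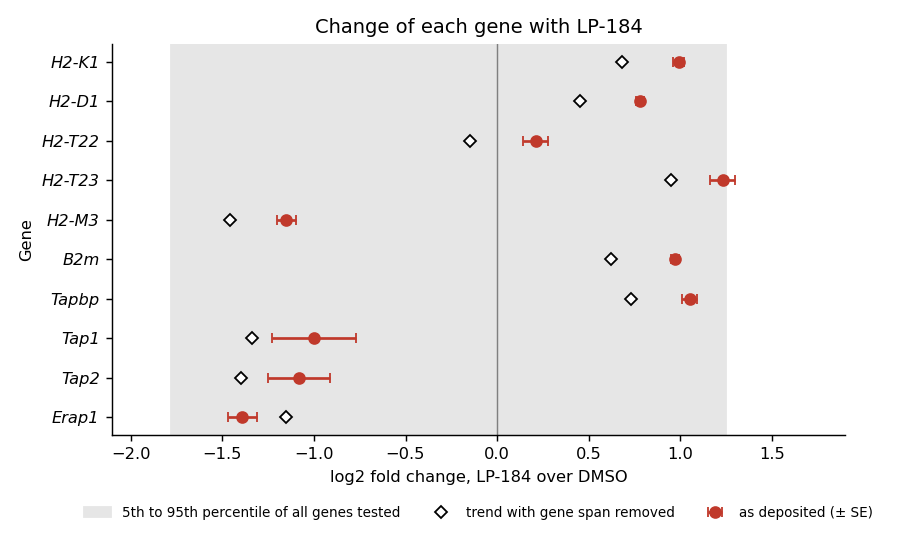
Log2 fold change of each gene, LP-184 over DMSO, with red dots and SE for the deposited values and open diamonds after removal of the trend with gene span. The grey band holds the 5th to 95th percentile of all genes tested, -1.78 to 1.25, and all 10 genes lie inside it.

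Changes across the whole table followed gene span, so each gene was also read against genes of its size. The fitted trend was above 0 at the spans of 9 of the 10 genes and below 0 at that of Erap1. Among the 851 genes tested with spans of 3.1 to 5.6 kb, the range of the heavy chain genes and B2m, the median log2 fold change was 0.23, with 52.2% higher and 25.5% lower. H2-K1, H2-D1, H2-T23 and B2m rose by more than this trend and H2-T22 did not. With the trend subtracted the log2 fold changes were 0.68 for H2-K1, 0.45 for H2-D1, 0.95 for H2-T23 and 0.62 for B2m. H2-T22 was then at -0.15 (limma adjusted p = 0.061), so its rise was no larger than that of genes of its size. Tap1, Tap2 and H2-M3 are short genes that fell against the trend, and without it they stood at -1.34, -1.40 and -1.46. Tapbp, of 13.4 kb, was at 0.73. Erap1 spans 53.6 kb, a size at which the fitted trend was -0.24, and it was at -1.15 without the trend.

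**Figure D4:**
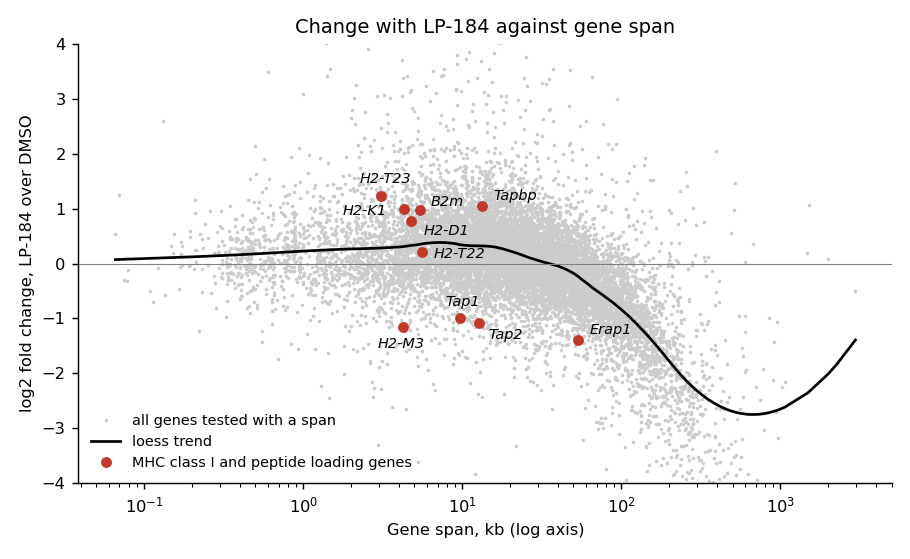
Log2 fold change, LP-184 over DMSO, of the 11462 tested genes that have an annotated span, against that span in kb on a log axis, with grey dots for single genes, a black line for the loess trend and red dots for the 10 class I genes. 88 genes lie outside the plotted range. H2-K1, H2-D1, H2-T23, B2m and Tapbp lie above the line, and H2-M3, Tap1, Tap2 and Erap1 below it.

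Read assignment also bears on the heavy chain values. Class I genes are close copies, and BALB/c mice carry other class I alleles, and an additional heavy chain gene, H2-L, than the C57BL/6J reference. Of the 50-base stretches of the longest coding transcript, 44.7% in H2-T22, 29.8% in H2-T23, 14.3% in H2-D1 and 8.8% in H2-K1 occurred in a transcript of another gene, with other H2 genes foremost, against 0.6% in H2-M3 and 0.0% in B2m. With 100-base stretches the shares were 14.2% for H2-T22, 7.3% for H2-T23, 4.6% for H2-D1 and 0.0% for H2-K1, H2-M3 and B2m. The shared stretches of Erap1 (13.3% at 100 bases) were with Cast, and those of Tap1 (4.0%) with Psmb9, which overlaps it on the opposite strand. Tapbp (14%) shared stretches mainly with Gm19412 and Tap2 (5.4%) with Gm20496 and Gm15821, which are annotated as non-coding transcripts of the opposite strand. No source used here gives the strand setting of the counting, so reads of such partners cannot be told apart, and how far shared reads move these values was not tested.

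Among other heavy chain genes, some rose and some did not pass. Of 20 further class I and class I-like genes listed, 11 were tested, of which 6 were higher, 1 lower and 4 did not pass. Their median log2 fold change was 0.77, against -0.01 over all genes tested and 0.23 over those of 3.1 to 5.6 kb. The share called higher is near the 52.2% of genes of 3.1 to 5.6 kb, so the count shows nothing particular to the list. H2-Q2 rose by 1.19 ± 0.19 (log2 scale, SE) and H2-Q10 by 1.19 ± 0.15, to 5.03 and 8.45 CPM with LP-184 against 2.15 and 3.64 CPM with DMSO. With the span trend removed both were at 0.87. Both are low and are close copies of other H2 genes. H2-T24 had 1.93 CPM with LP-184 and 0.664 CPM with DMSO, and Cd1d1, which encodes a lipid-presenting molecule outside the MHC, had 0.833 CPM with LP-184 and 1.92 CPM with DMSO (means, n = 3 each). H2-T24 and Cd1d1, the gene called lower, passed the filter only through the group where they are high, so their values are a description.

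Partners of the loading complex and chaperones of the endoplasmic reticulum moved both ways. Of 9 tested, 5 were higher, 3 lower and 1 did not pass, with a median log2 fold change of 0.24. Calr, the lectin chaperone of the loading complex, had 1768 CPM with LP-184 and 1151 CPM with DMSO (means, n = 3 each). Its log2 fold change was 0.62 ± 0.02 (SE), and 0.28 with the span trend removed. Ganab and Prkcsh, the subunits of glucosidase II that makes glycoproteins ready for these lectins, rose by 0.65 ± 0.03 and 0.70 ± 0.03, and by 0.39 and 0.37 with the trend removed. Uggt1, the glucosyltransferase that sends unfolded glycoproteins back to them, was at -0.80 ± 0.03, and at 0.09 with the span trend removed.

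Proteasome genes moved in both directions. Of 7 immunoproteasome and activator genes tested, 2 were higher, 2 lower and 3 did not pass, with a median log2 fold change of 0.06. Psmb8, an immunoproteasome subunit encoded between Tap1 and Tap2, had 3.10 ± 0.563 CPM with LP-184 and 3.98 ± 0.428 CPM with DMSO (SD, n = 3 each), and was at -0.36 ± 0.20 (SE) on the log2 scale, which did not pass (limma adjusted p = 0.092). With the span trend removed Psmb8 was at -0.66 (adjusted p = 0.0058), and without LP-184 replicate 1 at -0.50 (adjusted p = 0.037). Psmb9, next to Tap1, had 0.605 CPM with LP-184 and 1.16 CPM with DMSO and did not pass the filter. Of the changes past the threshold, Psme4, a proteasome activator, was at -0.95 ± 0.04, a value of -0.02 with the span trend removed, Psme2 at -0.15 ± 0.04, which was -0.45 with the trend removed, and the assembly factor Pomp at 0.09 ± 0.02, which was -0.21 with the trend removed. The constitutive subunits that the immunoproteasome subunits replace were at 0.30 for Psmb5, 0.22 for Psmb6 and -0.50 for Psmb7. With the trend removed Psmb5 and Psmb6 were slightly below 0 and Psmb7 was at -0.22.

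Among 9 cytosolic and endosomal peptidases, 4 were higher and 5 lower, with a median of -0.20. Lnpep, an endosomal relative of Erap1, fell by 1.20 ± 0.04 (log2 scale, SE) and Blmh, a cytosolic peptidase gene, by 1.13 ± 0.04, whereas Thop1, which degrades many peptides before TAP can carry them, rose by 0.82 ± 0.04. With the span trend removed Lnpep was at -0.32, Blmh at -0.74 and Thop1 at 0.50.

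Regulators of class I transcription also split. Of 15 transactivator genes tested, 6 were higher, 5 lower and 4 did not pass, with a median log2 fold change of -0.02. Besides Rela, those higher were Nfya (0.80), Rfx5 (0.76), Irf1 (0.74), Rfxap (0.73) and Rfxank (0.41). Besides Nfkb1, Creb1 and Irf2, those lower were Atf1 (-0.54) and Nfyc (-0.37). The values of these added genes with the span trend removed are not given here. Rela, an NF-kB subunit, had 164 ± 6.40 CPM with LP-184 and 69.5 ± 2.63 CPM with DMSO (SD, n = 3 each; log2 fold change 1.24 ± 0.04, SE). Nfkb1, which encodes another NF-kB subunit, had 46.0 ± 1.46 CPM with LP-184 and 79.3 ± 3.19 CPM with DMSO, a log2 fold change of -0.78 ± 0.05 that was 0.13 with the span trend removed. Rela was at 0.90 without that trend. Creb1, which binds the cyclic AMP response element, fell by 0.82 ± 0.04, and by 0.30 with the trend removed, and Irf2, an interferon regulatory factor, was at -0.91 ± 0.09, with 0.01 once the span trend was removed. Nlrc5, the class I transactivator, had 1.79 ± 0.364 CPM with LP-184 and 2.50 ± 0.834 CPM with DMSO, a log2 fold change of -0.43 ± 0.26 that did not pass (limma adjusted p = 0.13). Nlrc5 was at 0.33 with the span trend removed, and at -0.68 without DMSO replicate 3 (adjusted p = 0.023).

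Of 10 interferon receptor and signalling genes, 3 were higher, 5 lower and 2 did not pass, with a median of -0.20. Socs3, a feedback inhibitor of cytokine signalling, fell by 0.88 ± 0.10 (log2 scale, SE), and the kinase genes Jak1 and Tyk2 were at -0.82 ± 0.04 and -0.72 ± 0.14. With the span trend removed Socs3 was at -1.185, Jak1 at 0.15 and Tyk2 at -0.815. Of 11 tested genes for factors known to act on class I, most by lowering it, 3 were higher and 8 lower, with a median of -0.27. Of all genes tested, 38.3% were higher and 40.0% lower. Long genes are among the 8, such as Wwp2 (122.2 kb), Susd6 (90.3 kb) and Ezh2 (65.2 kb), sizes at which the fitted span trend was below 0. This count was not separated from that trend. Irgq, known as an autophagy receptor that directs class I molecules to lysosomes, rose by 1.71 ± 0.08, and Syvn1, a ubiquitin ligase of protein disposal from the endoplasmic reticulum, by 1.25 ± 0.06. With the span trend removed Irgq was at 1.33 and Syvn1 at 0.87. Wwp2, a ubiquitin ligase known from human cells to act on class I with SUSD6 and TMEM127, fell by 1.57 ± 0.06, and was at -0.50 with the trend removed.

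**Figure D5:**
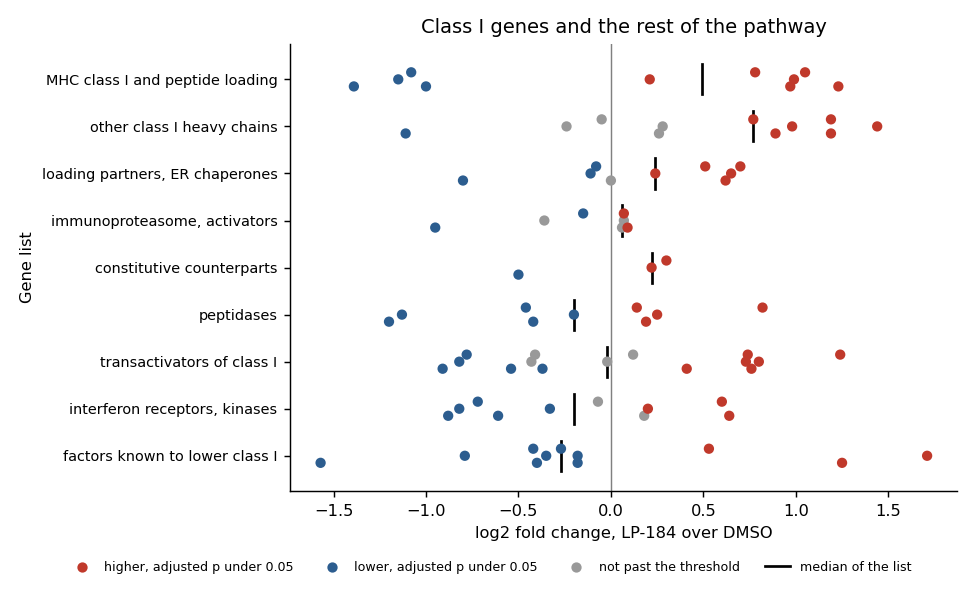
Log2 fold change, LP-184 over DMSO, of every tested gene in the class I set and in 8 related lists, with red for genes called higher, blue for genes called lower, grey for genes not past the threshold and black lines for the median of a list. The other class I heavy chains lie mostly to the right, with a median of 0.77, against 0.23 over all tested genes of 3.1 to 5.6 kb. The other lists spread over both sides of 0.

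Depth and makeup were alike within groups. The genes of the table held 18952393 to 22471753 reads per LP-184 library and 18864368 to 21585323 reads per DMSO library. Libraries of a group correlated across genes at r of 0.994 to 0.995, and libraries of different groups at 0.914 to 0.917. Of 9 mammary carcinoma markers 8 were in the table and summed to 4107 to 4145 CPM with LP-184 and 5381 to 5414 CPM with DMSO. They moved both ways, 5 higher and 3 lower, and the lower sum lay mostly in Krt7, with means of 705 CPM with LP-184 and 1926 CPM with DMSO. Krt14 was low, with means of 15.5 CPM with LP-184 and 5.59 CPM with DMSO. Of 18 leukocyte markers 5 were in the table and summed to 61.6 to 73.6 CPM with LP-184, against 14.6 to 15.9 CPM with DMSO. Csf1r and Cd68 made up most of this, with means of 34.5 and 31.3 CPM with LP-184 against 1.98 and 10.2 CPM with DMSO, while Lyz2 had 0 CPM in all LP-184 libraries against 1.62 CPM with DMSO. The other 13 leukocyte markers, Ptprc and Cd3e among them, were not analysed here, and the part of such markers in the class I results was not tested. In bulk RNA, fewer cells of a kind and less RNA per cell cannot be told apart, and CPM values are relative to the total of each library.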

How the data were processed

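Polyadenylated RNA, per the labels, of 6 mouse 4T1 libraries was used, 3 with LP-184 and 3 with DMSO; other experiments of the study were not analysed here. The authors deposited log2 CPM per gene and, in a second table, log2 fold changes and p-values of LP-184 against control. Each control column was matched to the DMSO library that carries its number. Tools for bulk RNA in the submitters' processing notes are STAR 2.7, fastp, edgeR, Subread 2.0 and featureCounts, and mm10 is among the builds, with no roles or settings. Neither the test behind the authors' p-values nor the strand setting is stated.

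A gene was tested where 3 or more libraries reached a log2 CPM of 0. The test was limma 3.58.1 in R 4.3.3 (2 groups, mean-variance trend, two-sided, Benjamini-Hochberg). CPM was obtained from the deposited log2 values by removing the offset that 0 reads carry (-3.34). The remainders were whole multiples of 1 read for all values (relative tolerance 1e-06), which gave the reads. Fold changes are on the authors' offset scale, which understates changes of low genes. Levels per kb use the union of annotated exons (GENCODE M21, GRCm38), whose spans matched 95.9% of genes by symbol. The trend with span was a loess curve (span parameter 0.3). Python 3.11.15 and pandas 2.3.3 were used for summaries. The fit was tested on simulated data.

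The 10 genes, the pathway lists and the tests were chosen with earlier results of these data known, so no list is independent evidence. In each list the rule named up to 3 called genes with the largest change. Calr, Cd1d1, Psmb8, Psmb9, Nlrc5, Nfkb1, Krt7, Krt14 and Cast were named after their values were seen. So were Nfya, Rfx5, Irf1, Rfxap, Rfxank, Atf1, Nfyc and Brd2. The authors' deposited table gave log2 fold changes within 0.041 of those reported here for the 10 genes, with adjusted p-values between 1.5e-56 for B2m and 0.0055 for H2-T22. Alternatives were other scalings, pseudocounts, filters, variance models, leaving out each library, the replicate block, a threshold of 0.01 for the adjusted p, voom on the recovered reads (4595 genes higher and 4780 lower) and removal of the span trend.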

Additional observations from a re-analysis of the deposited data

How the results depend on the processing

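Of the 10 class I genes, 9 kept their direction and their call in every alternative run, 18 for each gene but Tap1, which the stricter filter left untested (17). H2-T22 was the exception, at -0.153 with the span trend removed. Of the other named genes run in the alternatives, those that changed sign did so with the span trend removed: Uggt1 (0.093), Pomp (-0.212), Psmb5 (-0.002), Psmb6 (-0.056), Irf2 (0.014), Jak1 (0.152), Cast (0.481), Nlrc5 (0.332) and Nfkb1 (0.127). That setting removes the change fitted for genes of the same span. Psme4 lost its call there (-0.02), and Psme2 with median centring (-0.07). Of the further H2 genes, H2-Q5 lost its call in 7 of 17 alternatives and H2-T5 in 6 of 16. The counts of all genes and of the 10 genes called stayed within 1.5 times in all 18 alternatives: the 10 genes gave 5 or 6 higher and 3 or 4 lower. Counts of the pathway lists were less stable. Over all lists and alternatives, 18 such counts moved by more than 1.5 times, or to or from 0. Leaving out single libraries moved Tap1 between -1.16 and -0.89 and Tap2 between -1.20 and -1.01. Median centring moved the median of all genes to 0.08, against -0.01. Same-numbered libraries did not deviate together (correlations of -0.02 to -0.01), so no pairing by number was seen. Libraries of a group differ little, so this check cannot exclude a weak pairing. With the replicate block 4550 genes were higher and 4741 lower, against 4574 and 4767 without it, and 6 and 4 of the 10 genes. Depth limits Tap1 and Tap2, with 30 to 69 reads per LP-184 library, and intervals from so few reads cover counting error only.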

Other observations

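6 further genes with H2 symbols were outside every list above, and they were picked after their values were seen. H2-T7 had 15.3 ± 0.768 CPM with LP-184 and 7.82 ± 0.668 CPM with DMSO (SD, n = 3 each), a difference of 0.96 ± 0.11 (SE) on the log2 scale (adjusted p = 1.9e-09 by limma). H2-K2 had 11.8 ± 1.02 CPM with LP-184 and 6.83 ± 0.113 CPM with DMSO, and H2-T15 had 9.58 ± 0.474 CPM with LP-184 and 4.71 ± 0.303 CPM with DMSO, with log2 fold changes of 0.78 and 1.01. H2-Q5 was at 0.54 (adjusted p = 0.037 by limma), its groups overlapped, and it was at 0.25 (adjusted p = 0.38) with the span trend removed. H2-T5 had 1.25 CPM with LP-184 and 0.702 CPM with DMSO and passed the filter mainly through LP-184. H2-T11-ps did not pass the filter. All are close copies of other H2 genes, and how far their reads come from those was not tested.

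Of 10 MHC class II genes 2 were in the table and the other 8 were not analysed here. Cd74, the invariant chain of class II molecules, had 1.52 ± 0.465 CPM with LP-184 and 0.165 ± 0.0996 CPM with DMSO (SD, n = 3 each). It had 2, 6 and 2 reads in the DMSO libraries and passed the filter only through LP-184, so these levels are a description. H2-DMa, which edits class II peptides, had 7.06 ± 0.465 CPM with LP-184 and 4.6 ± 0.402 CPM with DMSO. Its log2 fold change was 0.61, and 0.375 with the span trend removed (limma adjusted p = 0.035). H2-DMa overlaps Brd2 on the opposite strand, which had a log2 fold change of 1.76. How far reads of Brd2 enter the H2-DMa value was not tested.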
